A study of Arabidopsis thaliana with 20 samples.

Results

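The genes described here are 44 Arabidopsis thaliana genes that carry only a locus code as a name and whose mean transcript level changed little from day 0 to day 1 and from day 1 to day 3 after flowers were induced, and was lower on day 5 than on day 3. They are 44 of 15553 measured genes named by a locus code alone (0.283%) and of 17197 genes with a name in all. The values come from 20 two-colour microarrays of 35S:AP1-GR ap1 cal plants. In these plants the floral regulators AP1 and CAL are mutated, and a fusion of AP1 with a steroid-responsive receptor domain (GR) is driven by the 35S promoter, which is active in most plant tissues. All samples share this genotype and treatment: inflorescences were treated with 1 µM dexamethasone just after bolting, and tissue of about 25 plants was pooled per time point. Tissue was cut close to the inflorescence surface on days 0, 1, 2, 3, 4 and 5 in 4 independent sets, and each array compared 2 consecutive days of 1 set. Each of the 5 intervals therefore had 4 arrays, 2 of them with Cy5 on the later day and 2 with Cy3. No plants without dexamethasone were analysed here, so a response to AP1 and other effects of treatment or time cannot be told apart.

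AP1 is a MADS-domain transcription factor that gives a meristem floral identity. Without AP1 and CAL the shoot tip keeps making inflorescence-like meristems, and once the fusion protein enters the nucleus these meristems turn into flowers together. Sepals, petals, stamens and carpels then form in order from the outside inwards while stem-cell and inflorescence genes are turned off. In such bulk tissue, fewer cells of a type and less RNA per cell cannot be told apart.

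Each value below is the log10 of the later day's signal divided by the earlier day's. The base 10 was inferred from the deposited scale, and the direction (Cy5 over Cy3 before turning) is the likely one. With the direction turned, every fall given here would be a rise. The arrays give ratios and no levels, so genes cannot be ranked by abundance and the presence of a cell type cannot be read from its markers. Each array held a value for 30142 to 30180 probes, array medians lay between -0.0120 and 0.00744, and the number of arrays limits the precision.

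The members were chosen from these values. The mean change from day 0 to day 1 had to lie between -0.2 and 0.2, the summed change from day 1 to day 3 likewise, and the summed change from day 3 to day 5 had to be at most -0.25 and below 0 in all 4 sets. Genes with any value at the limits of the scale, 2 and -2, were left out, as were 6 named loci. Of 14526 locus-named genes with no value at a limit, 13512 were flat up to day 3 and 54 of these had a late sum of at most -0.25. In 10 of the 54 at least 1 set was not below 0, which left 44. The 6 left-out loci were measured and 0 of them met the rest of the rule, and 10 further locus-named genes met it except for a value at a limit. Changes of the members over the chosen intervals are given as descriptions, with no test.

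Of the 44 genes, 43 are listed as protein-coding and 1, AT4G07523, as a pseudogene in the RefSeq table of TAIR10.1. That table adds a descriptive name for 1 member, AT5G53730, as NHL26 (NDR1/HIN1-like 26). NDR1 and HIN1 are membrane-associated proteins first studied in defence, and NHL genes are named for their similarity to them. The other members have no role in the sources used here, and none is assigned to them.

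Across the 44 genes the median change was 0.0007 from day 0 to day 1 and -0.0495 from day 1 to day 3, against -0.296 from day 3 to day 5. A late sum of -0.296 is a level 1.98-fold lower, and the members ranged from 1.78-fold to 3.55-fold lower, with 21 of 44 at 2-fold or more. Over all 15553 locus-named genes the median late sum was -0.0064, with quartiles at -0.0529 and 0.0430. A late sum of at most -0.25 that is below 0 in all sets was met by 1% of 28260 features with a value on every array. The rule fixes this for all members, so nothing is read from it.

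The median of the members' late sums was -0.343 in set 1, -0.294 in set 2, -0.310 in set 3 and -0.296 in set 4. The rule asks for a sum below 0 in every set, so nothing is read from their likeness. In set 1 the median member had the larger part of its fall from day 3 to day 4 (-0.206, against -0.128 from day 4 to day 5). Set 3 showed the opposite order, with -0.112 and then -0.191. The lowest late sum of a gene came from set 1 in 13 genes, set 2 in 10, set 3 in 10 and set 4 in 11.

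**Figure D1:**
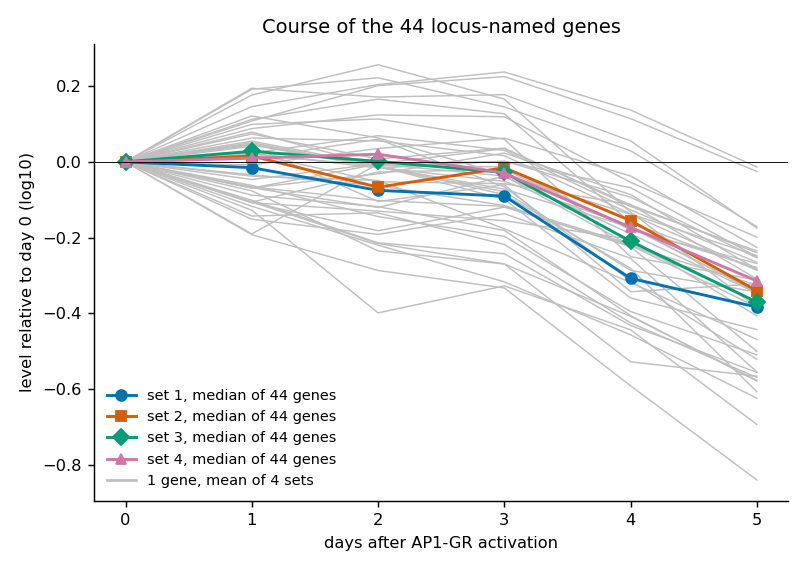
Level relative to day 0 (log10, y axis) on days 0 to 5 after activation (x axis). Grey lines are the 44 genes as means of 4 sets and coloured lines are the median gene of each set. The set medians stay close to 0 up to day 3 and fall by similar amounts, -0.294 to -0.343, from day 3 to day 5.

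Day 5 against day 0, the sum of all 5 intervals, had a median of -0.344 over the members, from -0.841 for AT3G28570 to -0.0136 for AT2G05260. The members thus entered the late fall from different heights: 28 of 44 were below their day 0 level on day 3, with a range from -0.333 to 0.238 and a median of -0.0547. In 5 members, AT3G28570, AT4G12890, AT5G44630, AT4G16060 and AT1G35320, the steps within the limits of the rule had already added up to -0.25 or lower by day 3. The change from day 0 to day 1 had the same sign in all 4 sets in 16 members, and that from day 1 to day 3 in 10, of which 9 were below 0. The share over all features was not counted for these signs, so nothing is read from them. For AT3G28570 the small early steps added up, with -0.192 ± 0.195 (SD, n = 4) from day 0 to day 1 and -0.141 from day 1 to day 3. AT2G05260 measured 0.146 ± 0.012 on day 1 and a further 0.0915 up to day 3, and its late sum of -0.251 brought it back to near its day 0 level.

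The lowest late sum belonged to AT5G46025, with -0.859, -0.784, -0.210 and -0.350 in sets 1 to 4 (mean -0.551 ± 0.320, SD, n = 4, 3.55-fold lower). Sets 1 and 2 were far lower than sets 3 and 4. Most of the fall sat on 1 array in each of those sets, -1.02 from day 3 to day 4 in set 1 and -0.845 from day 4 to day 5 in set 2, while the other late interval measured 0.159 and 0.0611.

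AT5G02540 measured -0.529, -0.284, -0.633 and -0.637 in sets 1 to 4 (mean -0.521 ± 0.165, 3.32-fold lower). Set 2 had the smallest fall. From day 4 to day 5 its 4 values lay between -0.468 and -0.182 (mean -0.326 ± 0.119), the lowest mean of that interval among the members.

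AT3G28570 gave -0.646, -0.498, -0.486 and -0.400 (mean -0.507 ± 0.102, 3.22-fold lower). It was below 0 on all 8 late arrays, and its fall was about equal in the late intervals, with means of -0.259 ± 0.083 and -0.249 ± 0.086. The gene missed the rule without set 1, 3 or 4, though its mean late sum with 1 set left out stayed between -0.543 and -0.461.

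AT3G14970 had a mean late sum of -0.456 but the largest spread of the members, an SD of 0.508. Its sets measured -0.0332, -0.0228, -1.03 and -0.738. Sets 1 and 2 were close to no change, and the fall came from 1 array in set 3 (-0.926, day 3 to day 4) and 1 in set 4 (-0.709, day 4 to day 5). AT5G25790 was similar, with -0.200, -0.0139, -0.267 and -1.01 (mean -0.372 ± 0.438). Here set 4 alone was low, through -1.04 from day 3 to day 4, and without set 4 the mean was -0.160, outside the rule.

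AT3G03270 is the 1 member measured by more than 1 probe. Its late sums were -0.617, -0.323, -0.361 and -0.372 (mean -0.418 ± 0.134, 2.62-fold lower), with set 1 lowest. Its probes measured -0.470 ± 0.163 and -0.367 ± 0.121, so each was below the threshold in the mean of 4 sets, and each was below 0 in every set. Most of its fall came from day 4 to day 5 (-0.300 ± 0.064), against -0.118 ± 0.106 from day 3 to day 4.

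AT5G65170 had the reverse order of means, -0.288 from day 3 to day 4 and -0.123 from day 4 to day 5. The difference between the late intervals did not pass in this gene (adjusted p = 0.847 by limma) or in AT3G03270 (adjusted p = 0.820 by limma). The late sums of AT5G65170 were -0.356, -0.248, -0.679 and -0.360 in sets 1 to 4 (mean -0.411 ± 0.186, 2.57-fold lower). From day 3 to day 4 its sets lay close together, from -0.344 to -0.202. From day 4 to day 5 set 3 measured -0.476 while the others lay between -0.0301 and 0.0272.

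AT3G27100, AT5G39630 and AT4G25780 were the most even of the 12 lowest genes. The late sums of AT3G27100 were -0.406, -0.460, -0.354 and -0.373 (mean -0.398 ± 0.047, 2.5-fold lower). Those of AT5G39630 were -0.359, -0.364, -0.326 and -0.363 (mean -0.352 ± 0.018, 2.25-fold lower). This was the smallest SD among the members, and the same gene had measured 0.195 ± 0.108 on day 1, just inside the limit of the rule. AT4G25780 measured -0.383, -0.324, -0.389 and -0.310 (mean -0.352 ± 0.040, 2.25-fold lower) and was below 0 on all 8 late arrays. It measured -0.143 ± 0.022 on day 1 and -0.0751 from day 1 to day 3, and its level on day 5 was -0.570 ± 0.075 against day 0.

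The last genes of the 12 were AT5G50565 and AT4G12890. AT5G50565 measured -0.573, -0.0855, -0.242 and -0.632 (mean -0.383 ± 0.262), low in sets 1 and 4 through the interval from day 4 to day 5. AT4G12890 measured -0.476, -0.259, -0.364 and -0.367 (mean -0.366 ± 0.088). From day 1 to day 3 it stood at the limit of the rule, -0.200, which joined a mean of -0.271 from day 1 to day 2 with 0.0715 from day 2 to day 3.

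**Figure D2:**
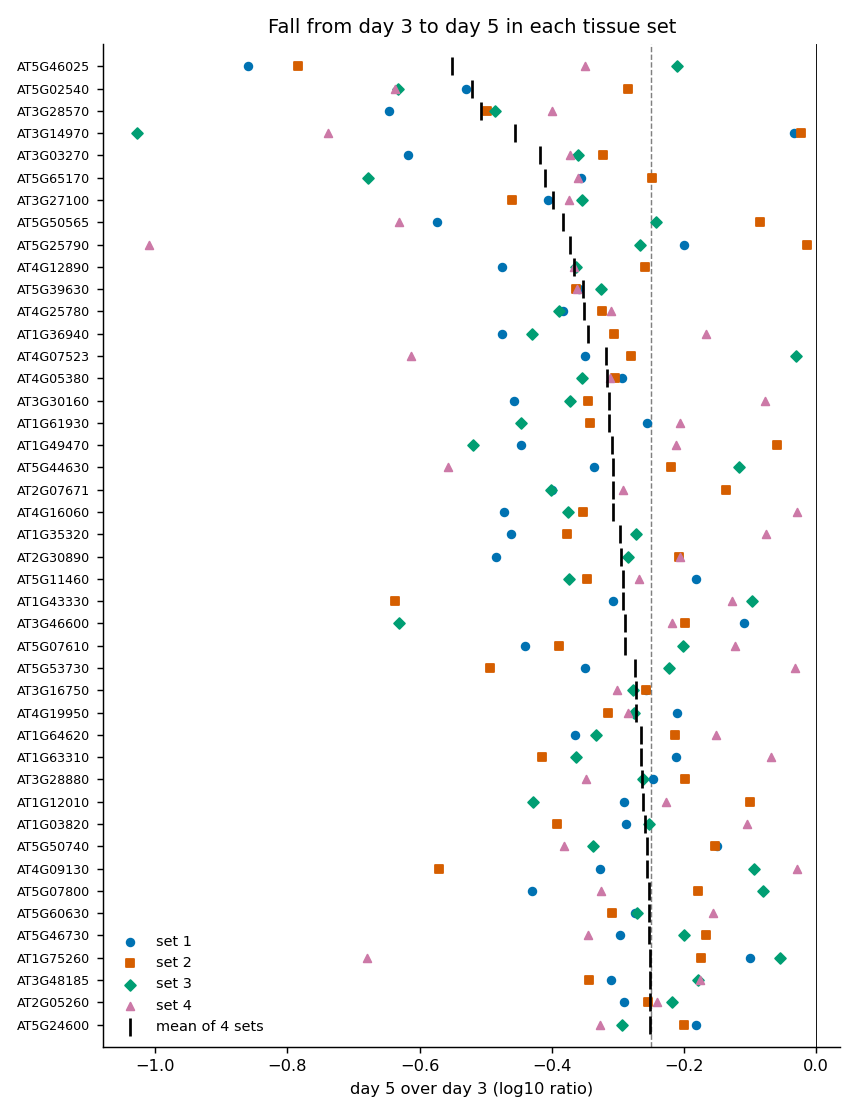
Log10 ratio of day 5 over day 3 (x axis) for each of the 44 genes (y axis), 1 symbol per tissue set and a black bar for the mean of 4 sets; the dashed line marks -0.25. AT5G39630 and AT4G25780 have close symbols, while AT3G14970 runs from -1.03 to -0.0228 and AT5G25790 from -1.01 to -0.0139.

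The spread between sets was wide for many other members. The SD of the late sum ran from 0.018 to 0.508 with a median of 0.135, against a median of 0.0909 over all features. It was 0.2 or more in 10 genes and 0.05 or less in 7. In 9 genes every set was at -0.25 or lower, and in 20 the lowest set was more than 3 times the set nearest 0. In 3 genes, AT3G14970, AT5G25790 and AT1G49470, a single array of the 8 late ones held at least 50% of the summed fall.

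The choice of members therefore depended on single sets. Without sets 1, 2, 3 and 4 in turn the rule gave 46, 55, 53 and 69 genes, of which 26, 34, 30 and 32 were among the 44. Fewer sets make the demand for a fall in every set easier to meet. There were 12 members that met the rule in each of these runs, 16 that missed it in 1 run and 16 that missed it in 2 or more. AT5G44630 and AT5G46730 missed it in all 4. The 9 genes that met it in these runs, with arrays scaled to 1 spread, with the median over sets and with values at the limit kept were AT3G03270, AT5G65170, AT3G27100, AT5G50565, AT4G25780, AT1G61930, AT2G07671, AT5G11460 and AT4G19950. They were picked after their values were seen.

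Among these 9, AT1G61930 measured -0.257, -0.343, -0.447 and -0.207 in sets 1 to 4 (mean -0.313 ± 0.106). AT2G07671 gave -0.400, -0.137, -0.401 and -0.292 (mean -0.307 ± 0.125). For AT5G11460 the late sums were -0.182, -0.346, -0.374 and -0.269 (mean -0.292 ± 0.086). In each of these genes the set nearest 0 was still at -0.137 or lower. AT4G19950 had the smallest SD of these 4 genes, with -0.211, -0.315, -0.276 and -0.285 (mean -0.272 ± 0.044). NHL26 (AT5G53730), by contrast, measured -0.349, -0.494, -0.223 and -0.0326 (mean -0.275 ± 0.196), with set 4 almost unchanged, and it was lost from the rule without set 1 or set 2. The pseudogene AT4G07523 measured -0.350, -0.281, -0.0310 and -0.612 (mean -0.318 ± 0.239), with set 3 almost unchanged.

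At the threshold itself the late sums formed a continuum. The last members inside were AT3G48185 (-0.252 ± 0.087), AT2G05260 (-0.251 ± 0.031) and AT5G24600 (-0.251 ± 0.071). The first genes outside that met the rest of the rule were AT4G34320 (-0.248 ± 0.073), AT3G57320 (-0.247 ± 0.026) and AT5G44580 (-0.246 ± 0.235). These 6 genes differed by less than the spread between their sets.

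The rule fixed the sum of the last 2 intervals but not how the fall was divided between them, so this was tested. The mean change from day 3 to day 4 was below 0 in all 44 genes (median -0.150) and that from day 4 to day 5 in 43 (median -0.154). The exception was AT1G12010, with 0.0211 ± 0.178. In 21 genes the earlier of the 2 intervals had the lower mean and in 23 the later one. A gene was below 0 in all 4 sets in 29 cases from day 3 to day 4 (8.3% of 28260 features), in 19 from day 4 to day 5 (6.08%) and in 14 in both (0.916%). The sum that chose the genes favours such counts, and nothing is read from them.

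The difference between the late intervals passed the test in 0 of 44 genes, by limma in a fit to all 20 arrays with Benjamini-Hochberg adjustment over 28260 features. The background was the same: 0 features passed (0%), against 1737 (6.15%) at an unadjusted p under 0.05, among them 2 members (4.55%). The estimates ran from -0.182 to 0.304 with a median of -0.0061, and the lowest adjusted p of a member was 0.694. Intervals of 95% had a median width of 0.390, and the widest was 0.882, so an even fall and a fall within 1 interval could not be told apart in every gene. In 42 of 44 genes the 95% interval, which is not adjusted for the number of genes, held 0.

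The exceptions were AT1G12010 and AT1G35320, both with the fall early. AT1G12010 measured -0.357, -0.181, -0.193 and -0.400 from day 3 to day 4 in sets 1 to 4, and 0.0666, 0.0810, -0.236 and 0.173 from day 4 to day 5. The groups of values did not overlap apart from set 3, which was below 0 in both intervals. Its difference was 0.304 (95% interval 0.0956 to 0.512, adjusted p = 0.694 by limma). AT1G35320 measured -0.421, -0.369, -0.107 and -0.138 and then -0.0406, -0.0076, -0.165 and 0.0620, a difference of 0.221 (0.0237 to 0.418, adjusted p = 0.781 by limma). Sets 1 and 2 carried most of it. The lowest difference was that of AT3G03270, -0.182, and its interval held 0.

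**Figure D3:**
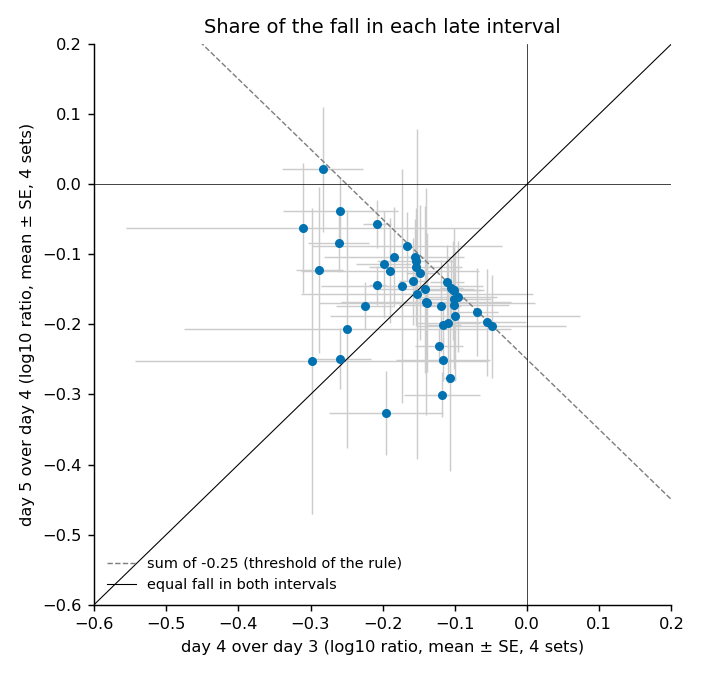
Change from day 3 to day 4 (x axis) against change from day 4 to day 5 (y axis), log10 ratios as mean ± SE of 4 sets, 1 point per gene. The dashed line is the sum of -0.25 that bounds the genes by the rule, and the solid line marks an equal fall in both intervals; points lie on both sides of it, 21 with the lower mean in the earlier interval and 23 in the later one.

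**Figure D4:**
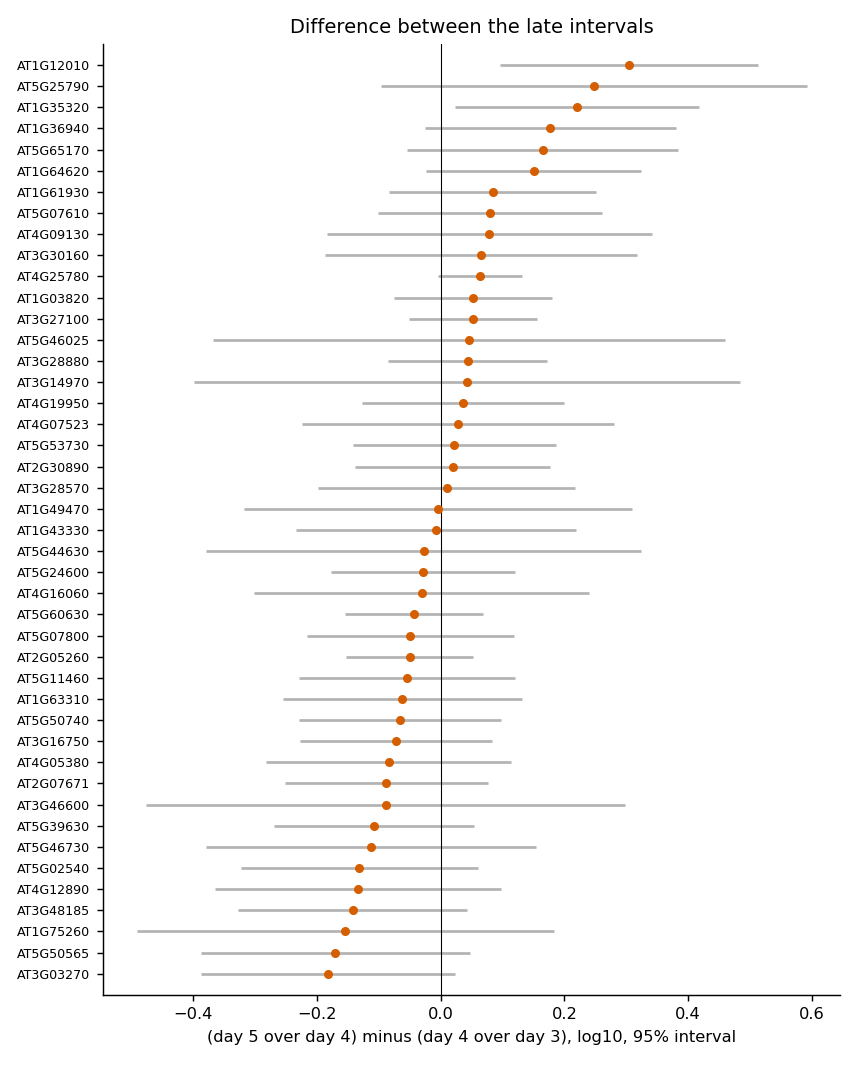
Difference between the change from day 4 to day 5 and the change from day 3 to day 4 (x axis, log10) for each of the 44 genes (y axis), with its 95% interval. The intervals of AT1G12010 and AT1G35320 lie above 0 and those of the other 42 genes hold 0; no gene passed after adjustment over all features.

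The flat stretch from day 1 to day 3 was examined in the same way, since a rise and a fall could cancel in its sum. The difference between its 2 intervals passed in 0 of 44 members and in 2 of 28260 features (0.00708%) by limma, with 2 members (4.55%) and 5.93% of features at an unadjusted p under 0.05. The member estimates ran from -0.178 to 0.343. The highest was that of AT4G12890 (0.343, adjusted p = 0.727 by limma), whose sets measured -0.275, -0.417, -0.0058 and -0.388 from day 1 to day 2 and 0.265, 0.269, -0.239 and -0.0088 from day 2 to day 3. Sets 1 and 2 were lower on day 2 and higher again on day 3, set 4 stayed lower, and set 3 was lower from day 3. The other was AT4G25780 (-0.0918, adjusted p = 0.795 by limma), with changes of at most 0.15 in size.

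Dye also bears on how the late values of a set are divided. In each set the later day was in Cy5 on 1 of the late arrays and in Cy3 on the other, so that a constant dye offset cancels in the sum and enters the difference with opposite signs in the even and odd sets. The dye coefficient passed in 4 of 44 members (9.09%) against 19.6% of all features, in 3 with a positive sign (12.1% of features) and in 1 with a negative sign (7.5%). These were AT5G44630 (0.249, adjusted p = 0.00467), AT1G49470 (-0.174, adjusted p = 0.0203), AT4G07523 (0.139, adjusted p = 0.0209) and AT2G05260 (0.0479, adjusted p = 0.0458), all by limma. With the set as a block AT2G05260 did not pass (adjusted p = 0.0533 by limma) and AT3G27100 did (-0.0502, adjusted p = 0.0404, against 0.0695 without the block). AT1G49470 measured -0.172, -0.123, 0.236 and -0.550 from day 3 to day 4 and -0.274, 0.0640, -0.755 and 0.338 from day 4 to day 5. It was lower in the later interval in sets 1 and 3 and in the earlier one in sets 2 and 4. Its sums of -0.446, -0.0593, -0.519 and -0.213 were less scattered than its single intervals. Without set 2 the dye coefficient passed in 0 members (2033 of 28260 features) and without set 4 in 1 (1696 features). With arrays taken as independent it passed in 7 members (8076 features), against 4 members and 5531 features in the fit above.

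The members were spread over the genome. By their locus codes 10 lie on chromosome 1, 3 on chromosome 2, 9 on chromosome 3, 7 on chromosome 4 and 15 on chromosome 5. Chromosome 5 held 34.1% of the members and 23.3% of all locus-named genes, and chromosome 2 held 6.82% and 16.0%. In the gene order of TAIR10.1 no 2 protein-coding members were next to each other: the closest pair, AT5G07610 and AT5G07800, had 17 protein-coding loci between them, and AT5G50565 and AT5G50740 had 18. This leaves the neighbours as genes the rule did not choose. Of 52 measured protein-coding genes directly beside a member, 33 (63.5%) had a late sum below 0. The share was 53.6% over locus-named genes and 51.3% over all features. The median of the 52 was -0.0258, against -0.0064 over locus-named genes, and these differences were not tested. Just 1 of the 52 was at -0.25 or lower, AT1G49475, the neighbour of AT1G49470, with -0.425, -0.327, -0.0773 and -0.359 in sets 1 to 4 (mean -0.297 ± 0.152). It missed the rule through its change of -0.254 from day 1 to day 3.

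The same rule with all signs turned, and with the 6 left-out loci allowed, was met by 162 locus-named genes (1.04%), against the 44 members (0.283%). Among genes with a symbol 9 of 1644 (0.547%) met the values of the rule, and among features with no gene name 70 (0.611%). These are counts under 1 rule, and the differences between the shares were not tested.

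Known genes of the same tissue give a scale for these falls. Over day 3 to day 5, 1010 of 28260 features passed by limma (3.57%), 664 higher (2.35%) and 346 lower (1.22%). Of 19 genes in a list for the shoot and inflorescence meristem, 7 were measured. Of these 5 fell and 0 rose (median -0.329, against -0.0025 over all features). This list was chosen with earlier results of these data known, so nothing is read from its counts. The stem-cell peptide gene CLV3 measured -0.450, -0.452, -0.374 and -0.789 in sets 1 to 4 and fell 3.28-fold (adjusted p = 0.00136 by limma). The MADS-box genes AGL71 and AGL72 fell 2.95-fold (adjusted p = 3.27e-04 by limma) and 2.67-fold (adjusted p = 4.07e-04). FD, the bZIP protein that binds FT, fell 1.85-fold (adjusted p = 0.0158), a call lost without set 1, 2 or 4 (adjusted p up to 0.127). AGL24, another MADS-box gene of the inflorescence meristem, fell 2.13-fold (adjusted p = 0.0281), a call lost without set 1, 3 or 4 (adjusted p up to 0.250) and with arrays taken as independent (adjusted p = 0.0569). LAS, needed for axillary meristems, measured -0.163 (adjusted p = 0.0543) and AGL42 -0.160 (adjusted p = 0.297). The largest falls of the members, 3.55-fold to 3.22-fold for the first 3 genes, were thus of the size of that of CLV3, and the median member was close to FD. The rule chose the members by these same sums, so their sizes follow in part from the choice. The comparison sets sizes side by side and is no test of likeness.

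UFO, the 1 measured gene of 7 in the list for floral organ identity, fell 2.62-fold (adjusted p = 3.27e-04 by limma). In the other lists 5 genes rose and 0 fell. Over all lists, 37 of 38 genes remained with features at a limit of the scale left out. Of these, 4 passed as higher and 7 as lower, against 5 and 6 with all features. NGA3, a transcription factor gene acting in style formation and 1 of 3 measured carpel and ovule genes, rose 4.65-fold (adjusted p = 1.29e-05). In that list SPT measured -0.199, below 0 in all 4 sets (adjusted p = 0.164 by limma), and INO 0.0675 (adjusted p = 0.503). SPL, needed to start sporocytes and 1 of 4 stamen and tapetum genes, rose 2.13-fold (adjusted p = 3.75e-05), while EMS1 measured 0.184, AT5G07230 -0.0591 and AMS -0.0570 and did not pass. MUTE and FMA, markers of the stomatal lineage, both rose, 15.7-fold (adjusted p = 1.97e-05) and 15.6-fold (adjusted p = 0.0102 by limma). FMA measured 0.795, 0.613, 2.45 and 0.915 in sets 1 to 4, so that its mean was 5.94-fold without set 3 and 24.3-fold without set 2. Its call was lost without set 1 or set 4 (adjusted p up to 0.0928). RCA, which encodes Rubisco activase, 1 of 2 measured photosynthesis genes, rose 1.82-fold (adjusted p = 0.0110), a call lost when any 1 set was left out. LHCB4.1 of that list measured 0.164 (adjusted p = 0.151 by limma). Some markers of other cell types thus changed over the same 2 days as the members, while others in their lists did not pass. These lists were also chosen with earlier results of these data known, so nothing is read from their counts. The part of these markers in the members' falls was not tested.

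The measured cell division genes gave no call, but the lists were covered only in part, so little can be read about cell division. Of 32 listed genes for histones H2A, H2B and H4, the proteins that package newly made DNA, 15 were measured. Of these 0 passed by limma and 1 had an unadjusted p under 0.05, with late sums from -0.0213 to 0.227 and a median of 0.0820. The mitotic list had 3 of 19 genes measured, the Aurora kinase genes AUR1 (-0.0377), AUR2 (0.0231) and AUR3 (-0.0460). DNA replication had 1 of 14 (PRL, 0.00142). In both lists 0 passed by limma, all with an unadjusted p above 0.05. None of 6 vascular genes carried a named probe.

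**Figure D5:**
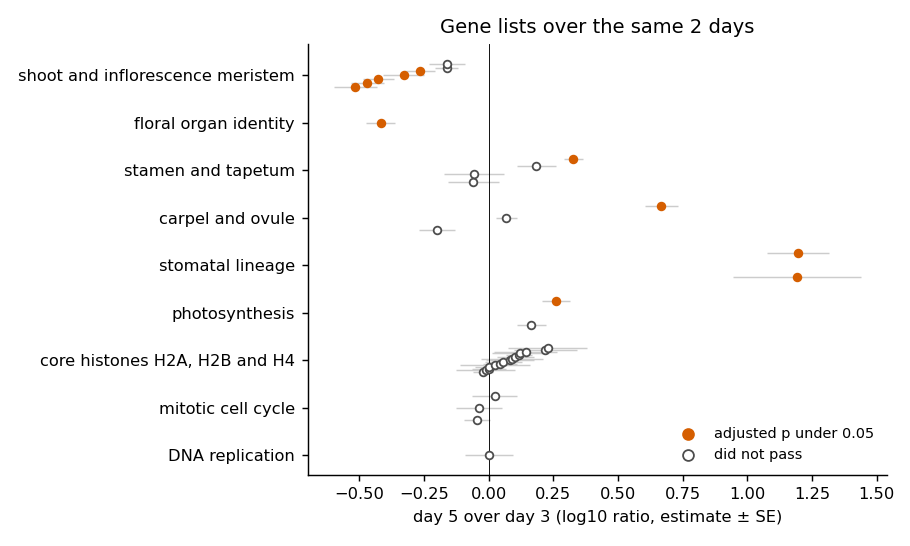
Log10 ratio of day 5 over day 3 (x axis, estimate ± SE from the fit to 20 arrays) for measured genes of 9 lists (y axis), none of them among the 44. The lists were chosen with earlier results of these data known. Filled points passed at an adjusted p under 0.05: 5 meristem genes and UFO lie below 0, and SPL, NGA3, RCA and the stomatal genes lie above it.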

How the data were processed

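The deposited values are log10 ratios, 1 column per array; per the labels' protocols, amino-allyl aRNA made from the mRNA was dye-coupled. The sources used here do not state background correction, normalization, log base, numerator or genome build. The base was read as 10 because values stop at 2 and -2, and the ratio as Cy5 over Cy3. Columns whose later day carried Cy3 were multiplied by -1. Of 30741 rows, 547 whose identifier lacks the form of the array's numbered oligo probes were left out. Of 30194 probes, 18740 had 1 gene name, 1 several and 11453 none; 18645 matched RefSeq's TAIR10.1 table, used for names, biotype and gene order, and 95 kept the older name. Probes of a gene were averaged.

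Tests used limma 3.58.1 in R 4.3.3 on 28260 features with a value on all 20 arrays (391 were incomplete), with 5 interval coefficients and 1 dye coefficient, two-sided, at an adjusted p of 0.05. Consecutive arrays of a set share a tissue sample, so data and design were whitened with 1 correlation for such arrays, estimated as -0.193 over all features. The fit had 14 residual and 2.18 prior degrees of freedom. It was also run on simulated data, with no outcome given here, so nothing is read from that run. The sets are independent tissue collections per the series' design and pair the arrays of a set. Deviations of consecutive arrays of a set from the interval means had a median correlation of -0.731, and those of other arrays of a set 0.649. Dyes alternate along a set and consecutive arrays share a sample, and the part of each in these correlations was not tested. The alternatives are an independence model, the set as a block, scaled arrays, no dye coefficient, features at a limit left out, within-set differences, and leaving out each set.

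The genes and lists were chosen with earlier results of these data known. Named by rule were the 12 members with the lowest late sum, genes passing a test, the 3 on each side of the threshold, the member with several probes and, per list, at most 4 called genes. The others named were chosen after their values were seen. No sequences or coordinates were used.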

Additional observations from a re-analysis of the deposited data

Results flagged for a closer look

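Of 55 genes examined (44 members and 11 called list genes), 3 had 1 set whose gap to the nearest other set exceeded Dixon's 95% critical value, as a share of the range, of its 4 late sums. Chance flags about 1 in 20 such groups. AT3G03270 was lower in set 1 (-0.617) than in the others (-0.372 to -0.323). AT5G39630 measured -0.326 in set 3 against -0.364 to -0.359, a gap that stands out because the other sets were nearly equal. FMA, of the stomatal list, measured 2.45 in set 3 against 0.613 to 0.915.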

How the results depend on the processing

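In 0 members did the difference between the late intervals, or between the 2 intervals from day 1 to day 3, pass under any of the 10 alternatives run, the replicate block among them. Over all features the late difference passed in 8 with arrays taken as independent, 1 with the replicate block and 0 to 4 when a set was left out, against 0 in the report. The early difference passed in 5 with arrays taken as independent, in 0 with the replicate block, with arrays scaled to 1 spread, without a dye coefficient and with within-set differences alone, and in 0 to 43 when a set was left out (43 without set 3), against 2. The dye coefficient passed in 4 members, 4 with the replicate block, 7 with arrays taken as independent and 0 to 5 when a set was left out. Over all 28260 features it passed in 5531, 5138 with the replicate block, 8076 with arrays taken as independent and 1696 to 8225 when a set was left out. List genes called from day 3 to day 5 numbered 11, with 7 to 9 when a set was left out (7 without set 1 or set 4). They numbered 10 with arrays taken as independent (AGL24 lost) and 11 otherwise. With features at a limit left out, these 11 were 4 higher and 7 lower, against 5 higher and 6 lower in the report. The rule found 44 genes and 46 to 69 when a set was left out (69 without set 4), 43 with arrays scaled, 38 with the median over sets, 43 with 1-probe genes alone and 54 with values at the limit kept. The replicate block moved the dye calls of AT2G05260 and AT3G27100, given in the report, and no call of the list genes. The causes of these shifts were not tested. The table holds no signal over background, so dim probes could not be left out.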
